A study of Mus musculus with 2 samples.

Results

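The genes described here are Id1, Id2, Id3, Id4, Hes1, Hes5, Hey1, Hey2, Sox9 and Sox8, 10 of 21853 protein-coding genes of the GENCODE M21 annotation of the mouse genome (GRCm38, mm10). They were chosen by name as regulators of glial and neural stem cells. For each, every deposited peak was taken that overlaps the gene body or the 50 kb on either side, and its distance to the transcription start site (TSS), its presence in each library and the footprints in it were recorded. In DNase-seq the enzyme DNase I cuts DNA that is free of nucleosomes, so a peak marks accessible chromatin, and a footprint is a short run of bases inside accessible DNA that is cut less than its surroundings. There is 1 group with 2 libraries, labelled biological replicates 1 and 2, from female B6CASTF1/J mice (first-generation offspring of C57BL/6J and CAST/EiJ) aged 2 months. The tissue is called hippocampus in 1 label and a layer of it in another, and no label says which layer. Both libraries carry 1 donor record and separate biosample records, so the spread between them may be technical. There is no treated or mutant group, and no p-value was computed across the libraries.

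Id proteins are helix-loop-helix proteins without a DNA-binding basic region; they bind E proteins and keep them from pairing with proneural factors, and their genes are classic targets of bone morphogenetic protein (BMP) signalling through SMAD proteins. Hes and Hey proteins are basic helix-loop-helix repressors that are induced when the Notch intracellular domain joins the DNA-binding protein RBPJ. Sox9 and Sox8 are SoxE factors with roles in astrocyte and oligodendrocyte development, and Sox9 also has a role in stem cell maintenance. Members of the Id and Hes groups are known for holding neural progenitors, among them the stem cells of the adult dentate gyrus, in an undifferentiated state.

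The longer peak list held 129779 peaks in replicate 1 and 71895 in replicate 2, and the footprint lists held 227153 and 118610 entries. The number of reads is unknown. The peak value is a signal scaled by the authors to each library, with a median of 0.699 over all peaks in replicate 1 and 0.867 in replicate 2. Markers of the tissue's cell types were judged by a peak within 1 kb of a TSS: 8 of 8 forebrain neuron genes, 1 of 4 interneuron genes, 4 of 7 astrocyte genes, 3 of 6 oligodendrocyte genes and 3 of 4 oligodendrocyte precursor genes had one in both libraries, against 59% of all protein-coding genes. Neither library had one at Gfap. Of 5 microglial genes 0 had one in both libraries and 4 in replicate 1 only, and of 4 endothelial genes 0 had one in both and 1 in replicate 1 only. In bulk tissue, accessibility in few cells and weak accessibility in many cannot be told apart.

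The regions below carry the main observations, and their sequences are from the RefSeq GRCm38.p6 assembly, printed 5′ to 3′ with capitals for bases inside footprints of both libraries. The first set is from the Id genes: the region upstream of Id1 (chr2:152735141-152735320, plus strand), a distal region of Id4 (chr13:48227741-48228000, plus strand) and a distal region of Id2 (chr12:25098801-25099060, minus strand).
Id1 upstream region: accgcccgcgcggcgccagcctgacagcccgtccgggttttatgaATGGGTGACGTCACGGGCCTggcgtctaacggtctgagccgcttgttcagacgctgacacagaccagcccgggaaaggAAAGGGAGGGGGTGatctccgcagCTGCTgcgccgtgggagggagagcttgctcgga
Id4 distal region: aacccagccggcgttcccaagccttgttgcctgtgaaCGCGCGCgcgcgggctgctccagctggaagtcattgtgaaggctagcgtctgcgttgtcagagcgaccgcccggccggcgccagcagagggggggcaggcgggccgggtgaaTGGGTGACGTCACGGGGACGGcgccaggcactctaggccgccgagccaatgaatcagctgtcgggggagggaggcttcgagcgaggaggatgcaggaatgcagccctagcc
Id2 distal region: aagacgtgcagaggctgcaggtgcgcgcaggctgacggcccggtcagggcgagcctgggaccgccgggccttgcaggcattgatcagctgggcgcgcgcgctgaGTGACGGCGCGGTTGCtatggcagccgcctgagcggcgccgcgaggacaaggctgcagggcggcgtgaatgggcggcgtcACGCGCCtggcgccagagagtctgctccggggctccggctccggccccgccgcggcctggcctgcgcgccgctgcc

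The second set is from the genes of the Hes and Hey repressors: the promoters of Hes1 (chr16:30065101-30065339, plus strand), Hes5 (chr4:154960681-154960922, plus strand) and Hey2 (chr10:30842802-30843020, minus strand).
Hes1 promoter: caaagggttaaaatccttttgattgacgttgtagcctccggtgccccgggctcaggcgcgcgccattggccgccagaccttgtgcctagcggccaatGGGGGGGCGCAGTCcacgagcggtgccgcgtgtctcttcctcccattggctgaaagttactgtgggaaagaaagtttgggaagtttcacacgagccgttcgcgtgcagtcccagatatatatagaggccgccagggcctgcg
Hes5 promoter: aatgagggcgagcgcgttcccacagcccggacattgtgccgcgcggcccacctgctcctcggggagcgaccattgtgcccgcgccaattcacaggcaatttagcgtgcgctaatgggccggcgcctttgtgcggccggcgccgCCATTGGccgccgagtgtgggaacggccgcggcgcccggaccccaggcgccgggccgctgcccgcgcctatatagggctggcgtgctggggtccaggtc
Hey2 promoter: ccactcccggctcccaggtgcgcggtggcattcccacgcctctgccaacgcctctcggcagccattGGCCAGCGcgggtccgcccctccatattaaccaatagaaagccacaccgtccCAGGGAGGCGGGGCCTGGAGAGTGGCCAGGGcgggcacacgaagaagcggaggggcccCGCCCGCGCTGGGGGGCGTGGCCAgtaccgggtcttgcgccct

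The third set is the SoxE promoters, Sox9 (chr11:112782001-112782220, plus strand) and Sox8 (chr17:25570687-25570880, minus strand), which are shown for comparison with those above.
Sox9 promoter: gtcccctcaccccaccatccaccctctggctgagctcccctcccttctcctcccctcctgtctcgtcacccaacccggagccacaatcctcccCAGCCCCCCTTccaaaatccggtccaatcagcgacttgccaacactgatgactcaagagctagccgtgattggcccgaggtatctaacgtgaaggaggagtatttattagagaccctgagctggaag
Sox8 promoter: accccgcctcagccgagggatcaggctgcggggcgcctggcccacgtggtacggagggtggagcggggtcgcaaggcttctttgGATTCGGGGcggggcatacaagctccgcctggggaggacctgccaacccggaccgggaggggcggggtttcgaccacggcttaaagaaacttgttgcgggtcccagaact

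All 10 promoters had a peak in both libraries, where a promoter is taken as all bases within 1 kb of the start of a protein-coding transcript. Over all protein-coding genes 59% had one in both libraries, 63.4% in replicate 1 and 60.4% in replicate 2. The promoter value is the highest value of any peak in that window. Its median over the 10 genes was 4.73 in replicate 1 and 3.23 in replicate 2, against 3.38 and 2.82 over the 12895 genes with a promoter peak in both libraries. Of the 10 genes, 6 had a mean above the median of those 12895.

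**Figure D1:**
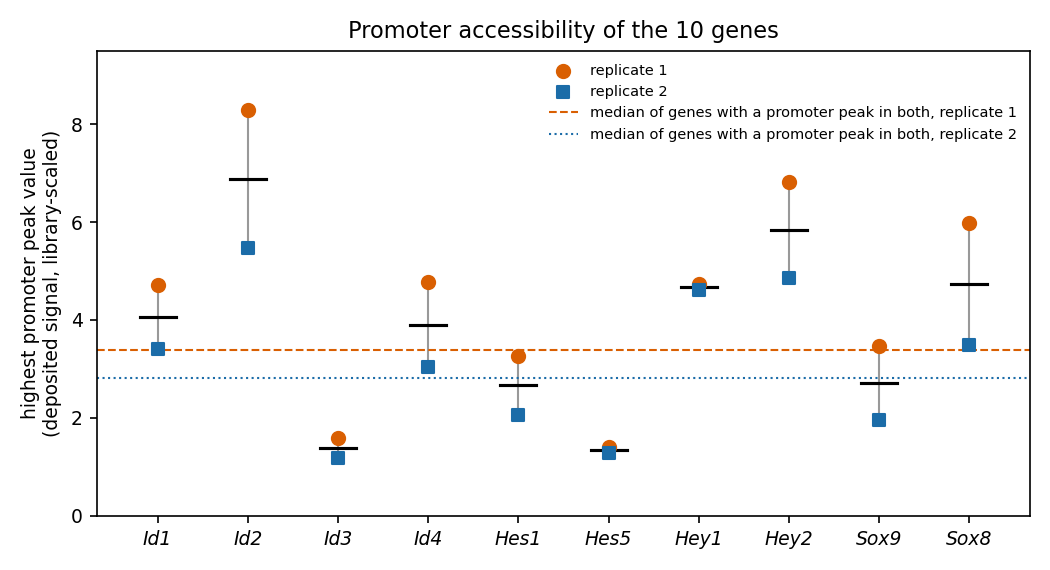
Highest promoter peak value (deposited signal, y axis) of each gene in replicate 1 (circles) and replicate 2 (squares), with a black bar at the mean of both and dashed and dotted lines at the medians of the 12895 genes with a promoter peak in both libraries. Id3 and Hes5 lie below both lines, and replicate 1 is the higher library for each of the 10 genes.

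Id2 had the highest promoter value of the set in both libraries and Id3 and Hes5 the 2 lowest. By mean value the order was Id2, Hey2, Sox8, Hey1, Id1, Id4, Sox9, Hes1, Id3 and Hes5. Neighbours in that order differed by less than the larger SD of the pair, except Hes1 and Id3, whose values did not overlap. Each of the 10 was higher in replicate 1, as were 73.7% of the genes with a promoter peak in both libraries. The ratio of replicate 1 to replicate 2 ranged from 1.03 at Hey1 to 1.76 at Sox9, with a median of 1.46, against 1.23 over those genes.

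Among the Id genes, Id2, an inhibitor of E proteins like its 3 paralogs, had promoter values of 8.29 in replicate 1 and 5.48 in replicate 2 (mean 6.88 ± 1.98, SD, n = 2). This places it at percentile 89.0 of the genes accessible in both libraries. Its promoter window also held 3 weaker shared regions, 4 in all, the most of any of the 10 genes. Id2 has 3 annotated start sites, 1 of them about 1 kb upstream of the others, so its promoter window is longer than that of a gene with 1 start, and 2 of the weaker regions were placed by that site.

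Id1 had values of 4.72 and 3.42 in replicates 1 and 2 (mean 4.07 ± 0.924, SD, n = 2, percentile 63.9). That signal did not lie at the TSS: the peak was centred 1.04 kb upstream (chr2:152735101-152735320) and reached the promoter window by its inner edge. The peak over the TSS itself had values of 0.637 and 0.733, so with a window of 500 bp the Id1 promoter value was 0.685. Upstream DNA of Id1 is where BMP-responsive elements used in reporter constructs have been mapped.

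Id4, which unlike the other Id genes stands with no other protein-coding gene in its window, had values of 4.77 and 3.04 (mean 3.91 ± 1.22, SD, n = 2, percentile 61.5) in a peak 0.297 kb upstream of its TSS. Id3 had values of 1.58 and 1.19 (mean 1.38 ± 0.280, SD, n = 2, percentile 19.3) in a peak centred in its annotated 5′ untranslated region, 0.284 kb downstream of the TSS. That distance counts from the GENCODE M21 start, chr4:136143497. The RefSeq promoter window of Id3, chr4:136143572-136143871, lies downstream of that start and overlaps the peak, so the position depends on the annotation. The Id family thus ran from the highest mean of the set to the second lowest.

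Among the repressors, Hey2, a Notch effector also known from heart and vessels, had values of 6.82 and 4.86 in replicates 1 and 2 (mean 5.84 ± 1.38, SD, n = 2, percentile 81.7). Hey1, its paralog, had 4.74 and 4.61 (mean 4.68 ± 0.0902, SD, n = 2, percentile 70.8), with the ratio between the libraries nearest to 1 among the 10 genes. Hes1, the oscillating Notch effector of neural progenitors, had 3.27 and 2.05 (mean 2.66 ± 0.862, SD, n = 2, percentile 42.6). Both Hey promoters were thus above both Hes promoters in each library.

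Hes5, a Notch effector of neural stem cells, had the lowest mean of the set, with 1.40 and 1.28 in replicates 1 and 2 (mean 1.34 ± 0.0832, SD, n = 2, percentile 18.2). Its promoter peak was in the shorter, stricter list of replicate 1 but not in that of replicate 2, where the lowest FDR of any base in it was 0.00289, against 3.39e-05 in replicate 1. It was the only one of the 10 promoters missing from a stricter list.

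Of the SoxE genes, Sox8 had promoter values of 5.98 in replicate 1 and 3.49 in replicate 2 (mean 4.73 ± 1.76, SD, n = 2, percentile 71.4). Sox9, a regulator of gliogenesis and stem cell maintenance, had 3.46 and 1.96 (mean 2.71 ± 1.06, SD, n = 2, percentile 43.3), but the strongest peak was not the same one. The peak over the Sox9 TSS had values of 3.46 and 1.83, and the one 0.593 kb upstream had 2.04 and 1.96. The upstream peak thus differed little between the libraries and the peak over the TSS by a ratio of 1.89.

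Several of these genes had more than 1 accessible stretch at the promoter. At least 2 separate shared promoter regions were found at 6 of the 10 genes, against 5102 of 21853 protein-coding genes (23.3%). Those 21853 include genes without a promoter peak in both libraries. Over the 12895 genes with one in both, the median was 1 shared promoter region, against 2 over the 10 genes. Besides Id2 with 4, Hes1 and Sox9 had 3 each, and Id1, Hey1 and Hey2 had 2 each. At Hes1 the additional regions lay 1.15 kb upstream, with values of 2.04 and 1.36, and 0.981 kb downstream, with 0.743 and 1.07. The upstream region covers the annotated start of the Hes1 gene, chr16:30064384. The TSS used is that of the protein-coding transcript, chr16:30065340.

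All 10 promoters held a footprint in both libraries, against 56% of protein-coding genes (12238 of 21853). That 56% also counts genes whose promoter was not accessible, and it is close to the 59% (12895) with a shared promoter peak. Because all 10 had such a peak, their footprint count is not a result separate from their peak count. Within 1 kb of a TSS there were 49 footprints in replicate 1 and 46 in replicate 2, and 19 of the 49 were overlapped by one of replicate 2. The 10 genes had a median of 5 promoter footprints in replicate 1 and 4.5 in replicate 2, against 5 and 4 over genes with a promoter peak in both libraries. At Hey2, 3 of the 4 footprints of replicate 1 were overlapped by 1 of replicate 2, and at Hey1 4 of 6. At Hes1 it was 1 of 7, at Sox8 1 of 6, at Hes5 and Id3 1 of 3 each.

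**Figure D2:**
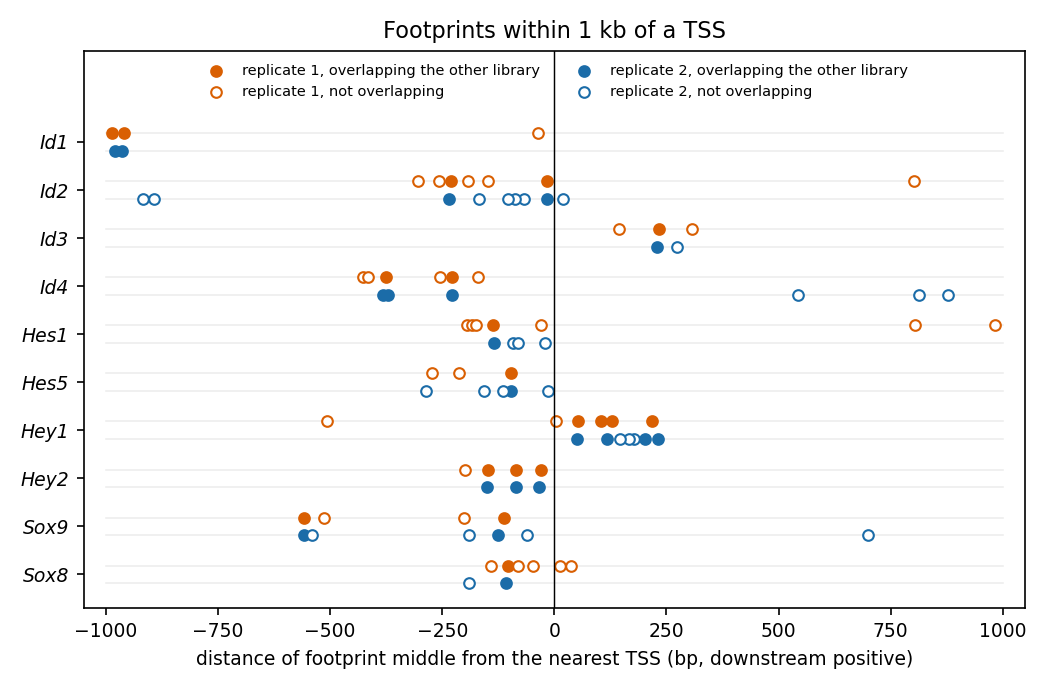
Footprints of replicate 1 (upper row of each gene) and replicate 2 (lower row) by the distance of their middle from the nearest TSS in bp, filled where a footprint of the other library overlaps. Most lie within 500 bp upstream of the TSS, except at Id1 (further upstream), Id3 and Hey1 (downstream), and 19 of the 49 footprints of replicate 1 are filled. Distances count from GENCODE M21 starts.

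Wide footprints of both libraries stood in the Hey2 promoter, where replicate 1 had footprints of 27 and 33 bp and replicate 2 of 29 and 32 bp, centred 30 and 85 bp upstream in replicate 1 and 34 and 87 bp upstream in replicate 2, counted from the TSS. Both held the Sp-type GC box GGGCGG or its reverse complement within 10 bp, as the printed Hey2 sequence shows. At Hes1 the shared footprint was centred 136 bp upstream of the TSS and lay beside a CCAAT box and an N-box, CACNAG, the type of site that Hes proteins bind. At Hes5 it was 7 bp wide, 96 bp upstream of the TSS, and lay over a CCAAT box.

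The letters TGGGAA, the core bound by RBPJ, were present on either strand in 8 of 20 shared promoter regions of the set (40%), against 15.4% of 17915 shared promoter regions. In shared distal regions the share was lower than that of all, with 7 of 44 (15.9%) against 22.7%. Of all footprints in the windows, 5.49% in replicate 1 and 3.39% in replicate 2 had these letters within 10 bp, against 3.46% and 2.95% of all footprints. In the printed promoters TGGGAA or its reverse complement starts at bases 160 and 174 of Hes1, bases 17 and 161 of Hes5 and base 31 of Hey2. It also starts at base 14 of the printed Id4 distal region and at base 111 of the Id4 promoter peak, which is not printed. Overlapping footprints of both libraries lay within 10 bp of such letters at Hes1, in its region 1.15 kb upstream of the TSS, with footprints of 20 bp in replicate 1 and 10 bp in replicate 2. They did so at Hey1 as well, with footprints of 33 and 10 bp centred 217 and 230.5 bp downstream of the TSS. Outside the Hes and Hey windows they did so in the distal region 47.9 kb upstream of Sox8, with footprints of 12 and 13 bp. Near the matches in the printed Hes1 and Hes5 stretches the footprints were of 1 library each, 82 bp upstream of the Hes1 TSS in replicate 2 and 213 bp upstream of the Hes5 TSS in replicate 1. N-boxes start at bases 79, 112 and 186 of the Hes1 stretch, and CCAAT boxes at bases 65, 93 and 142; the CCAAT boxes overlap there with TTGGC, the letters of an NFI site arm. The N-box letters were in 6 of 20 shared promoter regions (30%), against 31.3% of all.

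In the RefSeq promoter windows, which lie mostly upstream of a gene start, 6 of the 10 genes were matched (Id2, Id3, Id4, Hes5, Hey2 and Sox8). Their median observed over expected CpG was 0.729, against 0.384 over 32851 promoters. The GC box GGGCGG was in 5 of these 6 windows, against 35.7% of all, and TTGGC in 6 of 6, against 46.7% of all. Those 32851 promoters were not selected for a peak. Among shared promoter regions, GGGCGG was in 10 of 20 of the set (50%), against 52.9% of all. TTGGC was in 12 of 20 (60%), against 39.5%. The median observed over expected CpG of these regions was 0.738, against 0.788, so neither CpG nor GGGCGG was higher in the set there. A match is a description of the letters and not a bound site.

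Outside promoters, each of the 10 genes had at least 1 shared distal region in its window, against 78.8% of protein-coding genes. In the windows together there were 118 peaks in replicate 1 and 95 in replicate 2, which merged into 129 regions. Of these, 70 were in both libraries, 42 in replicate 1 only and 17 in replicate 2 only. The 70 comprised 20 promoter regions of the 10 genes, 6 promoter regions of other genes and 44 distal regions. The median number of shared distal regions per window was 5, against 2 over all protein-coding genes; the windows also hold other genes, and 25 of the 44 had one of the 10 genes as their nearest protein-coding TSS.

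**Figure D3:**
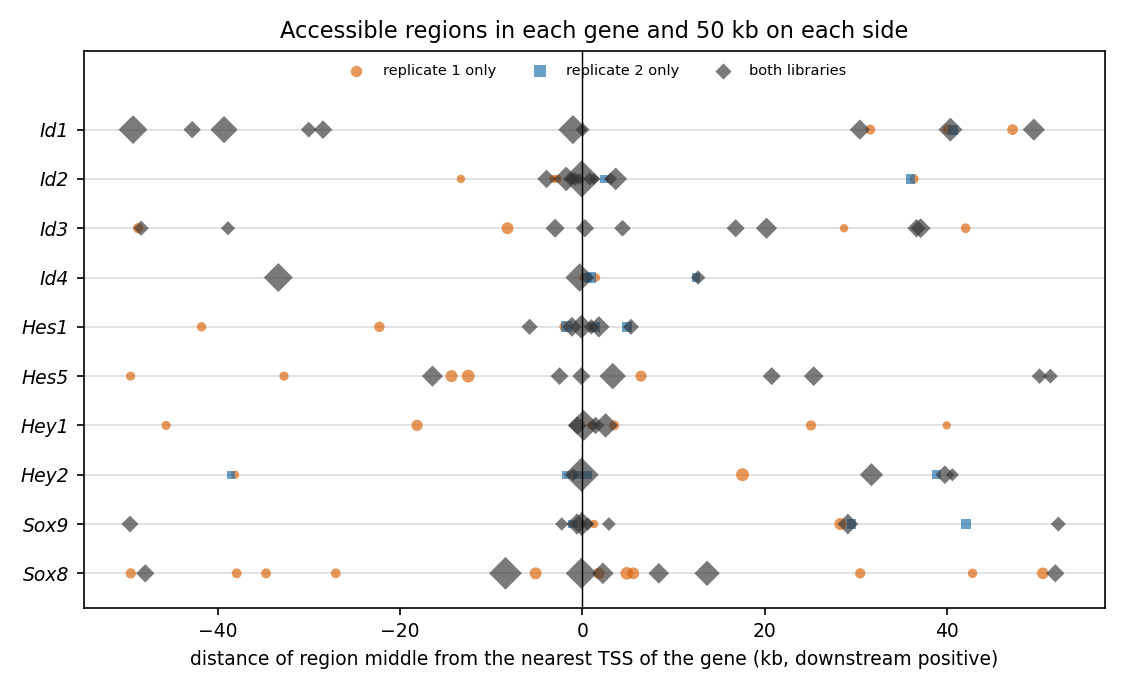
Middle of each region relative to the nearest TSS of the gene (x axis, kb, downstream positive), found in both libraries (diamonds), in replicate 1 only (circles) or in replicate 2 only (squares), with symbol area growing with the mean value. Large diamonds away from the TSS mark the Id4 region at -33.3 kb and, in the Id1 and Sox8 windows, the promoters of Mcts2 and Lmf1 at -49.3 and -8.43 kb.

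Peaks found in 1 library had lower values by the median, and their range overlapped that of the shared ones. In replicate 1, 76 of the 118 peaks overlapped a peak of replicate 2 (64.4%, against 46.6% of all its peaks), and these had a median value of 1.56, against 0.685 for the other 42. Their ranges were 0.327 to 8.29 and 0.318 to 1.41. In replicate 2, 78 of 95 overlapped one of replicate 1 (82.1%, against 83.4% of all its peaks), with a median of 1.31, against 0.506 for the other 17, and their ranges were 0.423 to 5.48 and 0.310 to 0.867. Replicate 2 has fewer peaks in all, and its part in these counts was not tested. Only 6 of the 42 regions of replicate 1 lay over bases that replicate 2 lists at an FDR under 0.05.

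Sox8 had the most regions, 18, of which 7 were shared and 11 in replicate 1 only, with none in replicate 2 only. Hey1, Hes5 and Id3 likewise had none in replicate 2 only, with 6, 5 and 4 in replicate 1 only. Hey2 went the other way, with 5 in replicate 2 only and 2 in replicate 1 only. Id1 and Id2 had 10 shared regions each and Id4 had 3, the fewest of the set.

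**Figure D4:**
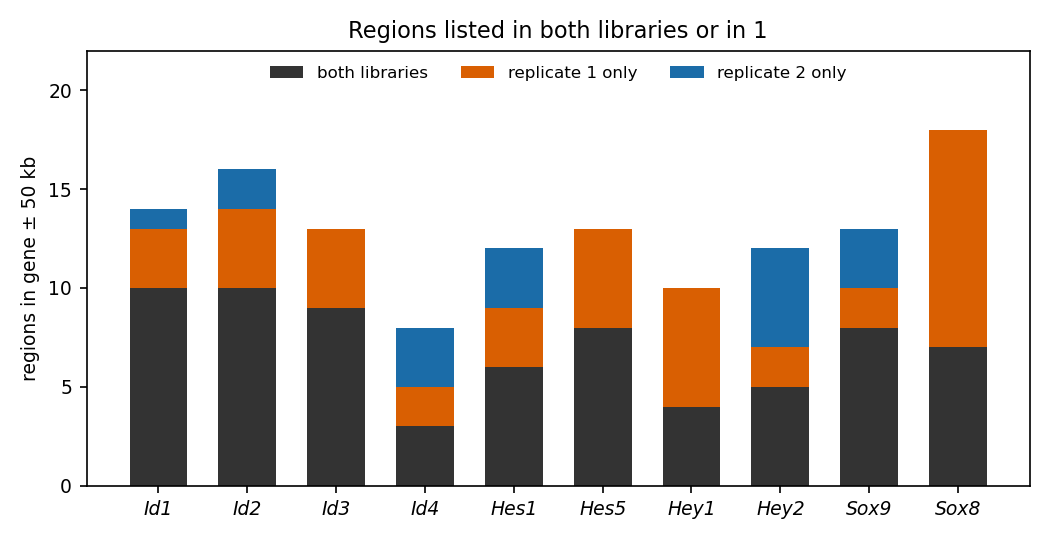
Number of regions in each gene and the 50 kb on either side (y axis), stacked by whether they were listed in both libraries, in replicate 1 only or in replicate 2 only. Shared regions range from 3 at Id4 to 10 at Id1 and Id2, and Sox8 has 11 regions in replicate 1 only.

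Over the 44 shared distal regions the median of the mean value was 1.41. By the mean of both libraries, Id4 had the strongest distal region of all 10 windows, 33.3 kb upstream of its TSS in introns of the noncoding genes A330033J07Rik and Gm36346, with values of 4.62 and 3.48 in replicates 1 and 2 (mean 4.05 ± 0.811, SD, n = 2). This was close to the value of the Id4 promoter, and over all 40569 shared distal regions the medians were 1.08 and 0.846. In the Id1 window a region 39.3 kb upstream, in an intron of H13, had 3.54 and 3.55, and in replicate 2 it was above the Id4 region. It held the core of the CTCF motif inside footprints of both libraries.

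Id2 was flanked by close distal regions on both sides. The one 1.78 kb upstream (chr12:25098781-25099060) had 3.17 in replicate 1 and 2.52 in replicate 2, the one 3.93 kb upstream 1.29 and 1.57, and the one 3.66 kb downstream 2.03 and 2.68. Only the first was higher in replicate 1. The window of Id3, whose promoter value was low, had a distal region 20.2 kb downstream with 2.00 and 2.02 and another 2.99 kb upstream with 1.95 and 1.11. The nearest protein-coding TSS of the first was that of E2f2, at 8.70 kb. The region at 20.2 kb thus exceeded the Id3 promoter in both libraries.

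Among the repressors, Hes1 had a region over its coding sequence 1.81 kb downstream of the TSS, with 1.66 in replicate 1 and 2.44 in replicate 2. The value in replicate 2 was above that of the Hes1 promoter in the same library. CTCF core letters were found in 3 of the 44 distal regions (6.82%), against 4.05% of all shared distal regions.

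By its mean the strongest distal region of the Hes5 window lay 16.4 kb upstream of Hes5. Its nearest protein-coding TSS was that of Tnfrsf14, at 15.9 kb. This region had the highest ratio between the libraries of all 44, with 2.95 in replicate 1 and 1.03 in replicate 2, a ratio of 2.86. In replicate 2, 45 of its 240 bases were listed at an FDR under 0.05, against all 240 in replicate 1. In replicate 2 the region 25.4 kb downstream of Hes5 was stronger, with 1.54 in replicate 1 and 1.85 in replicate 2. It was centred in the coding sequence of Plch2, whose TSS was the nearest, at 3.50 kb. The Hey2 window had a single shared distal region, 31.7 kb downstream of Hey2, with 3.03 and 1.90. Its nearest protein-coding TSS was that of Ncoa7, at 7.77 kb. That region overlaps a tRNA-Glu gene that RefSeq annotates at chr10:30811140-30811211.

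At the SoxE genes, Sox8 had a region 13.7 kb downstream in an intron of the noncoding gene AC131323.3 with 3.40 and 2.65 in replicates 1 and 2, and one over its own coding sequence with 1.87 and 2.35. Sox9 had a region 29.1 kb downstream with 2.61 in replicate 1 and 1.17 in replicate 2, a ratio of 2.24. Sox9 lies in a gene desert with enhancers known far beyond 50 kb, and those were not analysed here.

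Distal regions were split about evenly between the libraries. Of the 44 shared ones, 23 were higher in replicate 1, against 69.6% of all shared distal regions, and the median ratio of replicate 1 to replicate 2 was 1.01, against 1.21. Of the 20 shared promoter regions, 13 were higher in replicate 1, and the 7 that were not had values of at most 1.55 in either library.

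**Figure D5:**
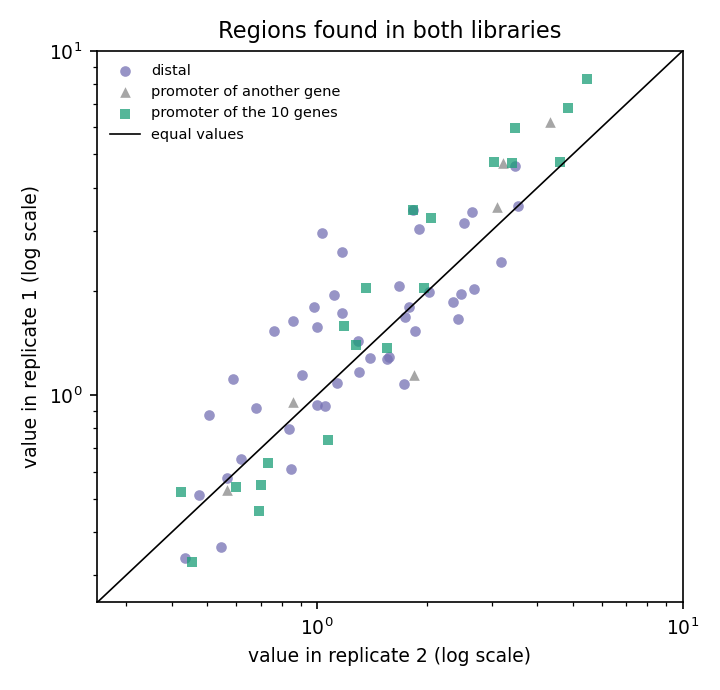
Value in replicate 1 (y axis) against value in replicate 2 (x axis), both on log scales, of the 70 shared regions: 44 distal regions (circles), 6 promoter regions of other genes (triangles) and 20 promoter regions of the 10 genes (squares), with a line at equal values. The strongest promoter regions lie above the line, and 23 of the 44 distal regions do.

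The upstream and distal regions of the Id genes shared sequence. The longest run of bases common to regions of different genes of the set, over 4356 pairs of region and strand, was 20 bases long, TGAATGGGTGACGTCACGGG, in the Id1 upstream region and in the Id4 region at -33.3 kb. That run occurs 2 times in the whole genome, once in each of these regions. It contains TGACGTCA, the cyclic AMP response element (CRE) bound by CREB-family proteins, and in both regions the CRE and most of the run lay in a footprint of each library. At Id1 the footprints were 24 and 20 bp wide in replicates 1 and 2, both centred 1056 bp upstream of the TSS.

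Downstream of this run the Id1 stretch holds a composite pattern, the GC-rich SMAD-type site GGCGNC followed after 5 bases by the SMAD box GTCT, as known from BMP-responsive elements. The pattern was chosen after the sequences were seen. It was found on either strand in 5 of the 70 shared regions of the set (7.14%), against 148 of 58484 shared regions (0.253%). All 5 belong to Id genes: 1 at Id1, 2 at Id2 and 2 at Id3. Each of the 5 regions has that Id gene as its nearest protein-coding gene. No match was overlapped by footprints of both libraries. A footprint overlapped the Id1 match in replicate 1 only. The Id2 match 1.72 kb upstream and the Id3 match 4.49 kb downstream had one in replicate 2 only. The Id2 match 3.04 kb downstream and the Id3 match 2.95 kb upstream had none in either library. Of 44 genes of the Notch, BMP, basic helix-loop-helix and Sox pathways listed for comparison, Smad1 and Grem1 were nearest to another match.

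The stretches of 40 bases that end with the match, on the strand of the gene, follow here with the one of Id4 that is placed by the shared run; capitals mark bases equal to Id1. They are chr2:152735181-152735220 (Id1), chr12:25098854-25098893 and chr12:25093044-25093083 (Id2, upstream and downstream), chr4:136140515-136140554 and chr4:136147956-136147995 (Id3, upstream and downstream) and chr13:48227884-48227923 (Id4).
Id1 upstream: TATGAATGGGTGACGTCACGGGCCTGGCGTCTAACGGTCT
Id2 upstream: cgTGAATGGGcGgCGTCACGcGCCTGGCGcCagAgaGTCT
Id4 upstream: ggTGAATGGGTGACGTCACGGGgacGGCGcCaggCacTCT
Id3 upstream: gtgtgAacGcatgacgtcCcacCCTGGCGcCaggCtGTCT
Id2 downstream: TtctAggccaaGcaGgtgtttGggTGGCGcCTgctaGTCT
Id3 downstream: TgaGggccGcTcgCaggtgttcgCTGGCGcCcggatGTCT

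The upstream Id2 stretch was identical to Id1 at 30 of 40 bases, and at 20 of the 25 bases before the match. The Id4 stretch was identical to Id1 at 29 of 40 bases, including the run that chose it. Of 143 matches to the pattern outside the windows of the 10 genes, the closest had 22 of 40 bases identical to Id1, with a median of 17. The upstream Id3 stretch had 16 and so lay within that range without gaps, but it holds TGACGTC starting 14 bases before the match, where Id1 has it 15 bases before. Id4 also holds these letters, at the same place in its stretch as Id1, but has no match to the composite pattern. The downstream stretches of Id2 and Id3 had 16 identical bases each. TGACGTC was in neither of them, nor in the upstream Id2 stretch. The regions that hold the Id1, upstream Id2 and Id4 stretches had values of 4.72 and 3.42, 3.17 and 2.52, and 4.62 and 3.48 in replicates 1 and 2. Those with the upstream Id3, downstream Id2 and downstream Id3 matches had 1.95 and 1.11, 0.513 and 0.475, and 1.09 and 1.14, so each was below the first 3 in both libraries. The downstream Id2 region ends at base 25093060, so it holds the match but not most of the bases before it.

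Over all 44 distal regions the SMAD-type GC site GGCGCC was present in 15 (34.1%), against 5.13% of all shared distal regions, and footprints of the set held it within 10 bp in 6.59% of 273 in replicate 1 and 9.04% of 177 in replicate 2, against 1.92% and 3.02% of all footprints. The distal regions of the set were also richer in GC, with a median of 57.5% against 50.5%, and in CpG, with an observed over expected value of 0.471 against 0.264, and the part of composition in the motif share was not tested. The GC box GGGCGG, a further GC-rich pattern, was in 38.6% of the 44, against 9.30% of all. AACAAT, the core of Sox factor sites, was in 2 of 44 (4.55%), against 8.34% of all shared distal regions.

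The pathways that act on these genes were accessible to differing degrees. Of the 44 pathway genes, 34 were accessible at the promoter in both libraries, where 59% of all protein-coding genes were, 3 in replicate 1 only (Notch3, Neurog2 and Sox10), 1 in replicate 2 only (Chrd) and 6 in neither. By group, 13 of 19 Notch pathway genes, 15 of 17 BMP pathway genes, 5 of 6 E protein and partner genes and 1 of 2 Sox genes had one in both, and the Notch share is near that of all genes. The highest values belonged to Rbpj, the nuclear mediator of Notch, with 11.1 in replicate 1 and 7.30 in replicate 2 (mean 9.20 ± 2.70, SD, n = 2), and to Numb, a Notch inhibitor, with 10.9 and 6.95. They were followed by Maml1, a coactivator of Notch, with 7.33 and 5.86, Tcf3, an E protein bound by Id proteins, with 7.81 and 4.36, and Smad1, a transducer of BMP signals, with 5.69 and 5.40.

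Among the pathway genes with no promoter peak in either library were Hes3, Hes7 and Heyl, relatives of the Hes and Hey genes described here, the Notch ligand Dll4 and the BMP ligand Bmp4. All 4 Hes and Hey genes of the set were accessible in both libraries, while of their listed relatives Hes6 was, with 3.92 and 2.52. Smad1, Smad4, Smad5 and Smad9, which carry BMP signals to targets such as the Id genes, all had promoter peaks in replicates 1 and 2.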

How the data were processed

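DNase-seq of 2 libraries of 1 group was used as deposited, on mm10 per the labels. The peak signal in the deposited lists is scaled to the library by the authors; values below 1 were whole multiples of 1 step per library (100% within 0.05 steps), and the scale is not stated. Per the text deposited with the files, lists were made per library, with 2 peak lists each. The deposited base lists give FDR values (q-values) under 0.05, and the deposited footprint lists carry a p-value-like threshold of 0.01 on every line. The sources used here name no aligner, caller or version, and do not say how CAST/EiJ alleles were handled. The read depth is unknown.

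Peaks of the longer lists that overlap by at least 1 bp across libraries were merged into regions; distal regions lie outside the 1 kb around every protein-coding TSS. Footprints count by their middle. Motifs were searched on both strands in regions and within 10 bp of footprints: the RBPJ core TGGGAA, the N-box CACNAG, the class B E-box CACGTG, the E-box CANNTG, the SMAD GC site GGCGCC, the Sox core AACAAT, the NFI arm TTGGC, AP-1 as TGANTCA, the CRE as TGACGTCA, ETS as CCGGAA, Sp as GGGCGG, EGR as GCGTGGGCG, STAT as TTCCNGGAA, the paired NFI site, the CTCF core, the NRF1 site, the TATA box TATAAA, the CCAAT box and GGCGNC followed after 5 bases by GTCT, of which the last 3 were added later. CACGTG matches also match CANNTG, CTCF cores also match CACNAG, and CCAAT can overlap TTGGC. Named pathway genes were the 5 with the highest mean value and the first 5 in alphabetical order without a peak; others were named after their values were seen. Members and lists were chosen with earlier results of these data known. Counting was tested on simulated data, where 200 of 200 genes were recovered. Tools were pysam 0.24.0, Matplotlib 3.10.9, pandas 2.3.3 and NumPy 2.4.6 in Python 3.11.15. A result on 1 region is not reported here.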

Additional observations from a re-analysis of the deposited data

How the results depend on the processing

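All 10 promoters had a peak under each promoter window and in each library alone, and 9 did in the shorter lists, where Hes5 has no value in replicate 2. Promoter footprints in both libraries were found at 10 genes, or 9 with a window of 500 bp. The 70 shared regions became 45 with the shorter lists and 42 with flanks of 10 kb, and 56 and 59 with a reciprocal overlap of 50% and with equal numbers of peaks; 1 library alone gave 91 to 114 regions. The median of 5 shared distal regions became 2.5 with the shorter lists (all genes 1), 2 with flanks of 10 kb (all genes 1) and 3 with a reciprocal overlap of 50% (all genes 2), and was 6 to 8 in 1 library alone (all genes 3 and 6). The Id1 promoter value fell to 0.685 with a window of 500 bp, chosen after seeing the data, because the upstream peak then lies outside it. For the other 9 genes the 500 bp window, and where they list it the shorter lists, return the same strongest peak. No paired analysis was possible because there is 1 group. With 2 libraries and unknown depth, a missing peak does not show closed chromatin.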

Other observations

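Other genes in these windows had strong promoters of their own. Lmf1, whose promoter region is centred 8.43 kb upstream of the Sox8 start, had 6.19 in replicate 1 and 4.33 in replicate 2, above the Sox8 promoter in both libraries. Mcts2, whose promoter region lies in an intron of H13 and is centred 49.3 kb upstream of the Id1 start, had 4.72 and 3.23, and Pank4, with its region centred 3.33 kb downstream of the Hes5 start, had 3.52 and 3.11, above the Hes5 promoter in both libraries. At Ncoa7, in the Hey2 window, the promoter region had 1.14 and 1.84. The windows of Id4, Hes1, Hey1 and Sox9 held no TSS of another protein-coding gene.

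Single-library regions of the windows with the highest values were one 17.6 kb downstream of Hey2 with 1.41 in replicate 1 and one 1.71 kb upstream of Hes1 with 0.867 in replicate 2.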
